A study of Mus musculus with 96 samples.

Results

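The BFUE sort gate, named for burst-forming units-erythroid, the earliest progenitors committed to red cells, held 8 Cd34-high cells and 15 Cd34-low cells among 23 wells with 50000 or more reads. The 8 cells were chosen by their own Cd34 level, at 100 CPM or more (CPM is the count of a gene per 1000000 reads of its well), and the other 15 lay below it. Cd34 is therefore the rule and no finding, and since every gene was read in the same cells, all differences between the sides are given as a description with no test. No cell lay near the threshold: the lowest Cd34-high cell stood at 1036 CPM and the highest Cd34-low cell at 5.16 CPM. The BFUE well left out for depth, D2, had 12472 reads, and 8 of them were of Cd34.

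Both sides were sorted from C57/Bl6J fetal livers of embryonic day 14.5 and shared 1 plate of 96 wells with 3 other gates of 24 wells each. Before sorting, all cells had been depleted with antibodies to CD3e, CD45R, Ly-6G, CD11b, Ter119, Sca-1, CD16/32 and CD41, and the gates were then set on Kit (CD117), CD71 and CD24. Libraries were made by Smart-seq2, which reads full-length cDNA of single cells and uses no molecular identifiers. Across the whole series 91 of the 96 wells were kept. The labels name no animal, so each side counts as 1 sample and no difference has a replicate check. The BFUE gate filled 3 plate columns, with 3, 4 and 1 Cd34-high cells in columns 1, 2 and 3, against 5, 3 and 7 Cd34-low cells. Plate rows A to D held 4 Cd34-high and 7 Cd34-low cells. Each side held cells with Xist and cells with Y-linked genes at 10 or more reads (6 and 2 of the Cd34-high cells, 8 and 6 of the Cd34-low cells, and none with both), so both kinds of cell stood on either side.

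CD34 is a surface protein of blood stem and multipotent progenitor cells. Such cells carry low levels of transcripts of several blood lineages at once, a state called priming, and the receptor tyrosine kinase Flt3 marks those with lymphoid and myeloid potential. Commitment to red cells is driven by Gata1 and Klf1, which activate the erythropoietin receptor and the genes of heme synthesis and the red cell membrane, whereas PU.1, the product of Spi1, drives myeloid and lymphoid programs and opposes Gata1.

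The start regions of 4 genes that set the sides apart are shown from RefSeq (GRCm38.p6), each from 250 bases before to 50 after the start site, in the gene's own direction. Capitals mark matches to AGATAA or TGATAA (the core bound by GATA factors) or to GAGGAA (a core bound by PU.1 and other ETS factors), on either strand and with no overlap between the kinds of motif in these regions. Cd34 lay at chr1:194938571-194938870 (plus strand), Mpo at chr11:87793534-87793833 (plus strand), Klf1 at chr8:84901732-84902031 (plus strand) and Epor at chr9:21963527-21963826 (minus strand). The first pair was higher in the Cd34-high cells and the second pair lower.
Cd34: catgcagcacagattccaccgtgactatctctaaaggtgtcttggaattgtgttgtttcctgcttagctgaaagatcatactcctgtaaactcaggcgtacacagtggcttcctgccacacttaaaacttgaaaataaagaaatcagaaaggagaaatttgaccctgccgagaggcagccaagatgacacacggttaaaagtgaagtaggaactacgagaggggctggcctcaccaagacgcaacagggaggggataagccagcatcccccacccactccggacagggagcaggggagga
Mpo: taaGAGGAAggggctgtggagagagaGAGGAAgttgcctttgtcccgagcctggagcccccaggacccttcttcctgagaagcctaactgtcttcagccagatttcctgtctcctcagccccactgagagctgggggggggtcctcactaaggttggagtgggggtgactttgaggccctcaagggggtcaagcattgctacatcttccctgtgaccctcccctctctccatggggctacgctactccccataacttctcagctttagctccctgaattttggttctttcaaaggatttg
Klf1: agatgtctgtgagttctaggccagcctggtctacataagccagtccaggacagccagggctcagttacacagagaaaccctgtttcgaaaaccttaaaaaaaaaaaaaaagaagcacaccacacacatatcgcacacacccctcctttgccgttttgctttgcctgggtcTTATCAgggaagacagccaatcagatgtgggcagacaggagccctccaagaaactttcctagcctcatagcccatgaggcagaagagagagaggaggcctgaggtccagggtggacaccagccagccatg
Epor: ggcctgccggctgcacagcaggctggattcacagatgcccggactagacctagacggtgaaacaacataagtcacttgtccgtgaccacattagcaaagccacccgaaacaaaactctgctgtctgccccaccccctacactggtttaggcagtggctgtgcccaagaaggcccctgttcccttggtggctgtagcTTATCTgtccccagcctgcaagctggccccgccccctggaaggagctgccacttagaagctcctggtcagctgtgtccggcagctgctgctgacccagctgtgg
Klf1 and Epor each had 1 match to the GATA cores and 0 to GAGGAA, Mpo had 2 matches to GAGGAA and 0 to the GATA cores, and Cd34 had neither. Of the other markers, whose regions are not shown, Gata1 (lower in the Cd34-high cells) had 0 GATA cores and 1 GAGGAA, and Flt3 (higher) had neither, so the matches did not divide the 6 markers by direction. Among 32851 RefSeq start regions of this length, 18.6% held a GATA core and 28.3% held GAGGAA, so either is common, and a match describes letters only.

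Depth overlapped between the sides. Cd34-high cells held 1361051 to 1735490 reads with a median of 1461694, against 1464907 to 3785903 reads with a median of 1594700 in Cd34-low cells. They showed a median of 9226 genes with a read, against 9567 in Cd34-low cells, and of 8152 against 8296 genes when each cell was thinned to 500000 reads. Mitochondrial genes took 1.31% to 2.69% of reads in Cd34-high cells and 1.13% to 2.37% in Cd34-low cells. Summed reads were 11974810 over the Cd34-high cells and 26209421 over the Cd34-low cells. Intervals are exact 95% intervals on the summed reads that cover counting error only. In a sum, fewer transcripts per cell cannot be told apart from fewer cells with them. The range over cells is therefore given for many genes, and a fold given without it does not show how even the cells were or whether the sides overlapped.

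Besides Cd34, the rule itself, the other 5 marker genes did not overlap between the sides either. The markers were set for this contrast, so their separation is no independent result. Among the 9224 genes at 10 CPM or more in either side, 0.726% lay higher in every Cd34-high cell and 0.271% lower in every one. Flt3 (chromosome 5, 147330741 to 147400489, GRCm38) stood at 41.4 CPM in the lowest Cd34-high cell, 677 at the median and 1449 in the highest, against 0, 0.669 and 3.72 CPM in Cd34-low cells, and no Cd34-low cell held 10 reads of it. Mpo (chromosome 11, 87793581 to 87804413), the peroxidase of neutrophil granules, ran from 145 through a median of 1561 to 6209 CPM in Cd34-high cells, against 0.669, 4.10 and 79.3 CPM in Cd34-low cells. Summed over cells, Flt3 was 668-fold higher (interval 459 to 1015) and Mpo 174-fold higher (157 to 194) in the Cd34-high cells. The 3 erythroid markers lay the other way round. Gata1 (chromosome X, 7959260 to 7978071) ran from 2.17 through 4.46 to 66.9 CPM in Cd34-high cells, against 189, 419 and 583 CPM in Cd34-low cells. Klf1 (chromosome 8, 84901928 to 84905291) ran from 1.92 through 8.0 to 71.5 CPM, against 167, 684 and 1094 CPM in Cd34-low cells. Epor (chromosome 9, 21958897 to 21963506), the erythropoietin receptor, ran from 0.717 through 2.42 to 4.94 CPM, against 16.2, 185 and 365 CPM in Cd34-low cells. In summed reads Gata1 was 32.4-fold lower (27.6 to 38.3), Klf1 35.6-fold lower (31.2 to 40.8) and Epor 77.8-fold lower (54.1 to 116) in the Cd34-high cells. Of the 8 Cd34-high cells, 0 held 10 reads of Epor, and for these markers the gate's erythroid label held in the Cd34-low cells but not in the Cd34-high cells. In the other 3 gates Cd34 reached at most 3.91 CPM in any of 68 cells, and summed Gata1 lay at 410 to 464 CPM.

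**Figure D1:**
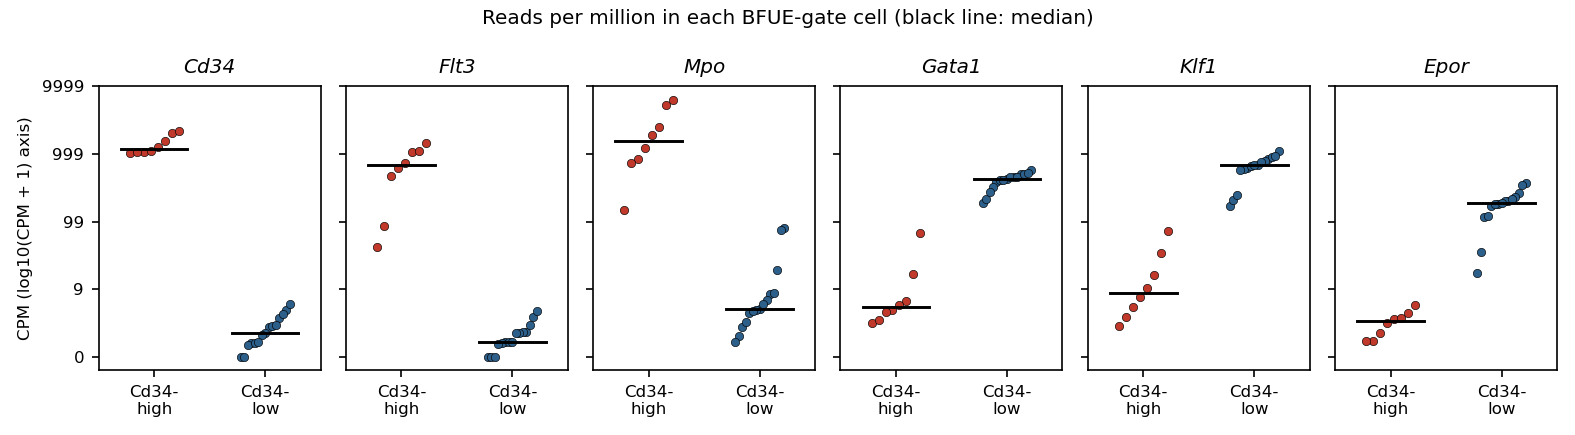
Levels (log10 of CPM plus 1 on the axis) of the 6 marker genes, with 1 point for each of the 8 Cd34-high cells (left, red) and the 15 Cd34-low cells (right, blue) and a line at the median. Cd34, by the rule, and Flt3 and Mpo lie higher in every Cd34-high cell, and Gata1, Klf1 and Epor lie lower in every one, with Mpo from 145 to 6209 CPM against at most 79.3 CPM in Cd34-low cells.

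Across the 9224 genes measured at 10 CPM or more in either side, 2064 were 2-fold or more higher in the Cd34-high cells (22.4%) and 1394 were 2-fold or more lower (15.1%). Every Cd34-high cell lay above every Cd34-low cell for 67 genes (0.726%), Cd34 by the rule among them, and below every one for 25 genes (0.271%). These shares are the background against which the lists below are set, and the cells were chosen on this contrast. The balance depended on the summary: by the median of per-cell CPM, 1367 genes were higher and 1842 lower. The median of all log2 ratios was 0.03, and it lay between -0.16 and 0.05 under the settings tried.

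**Figure D2:**
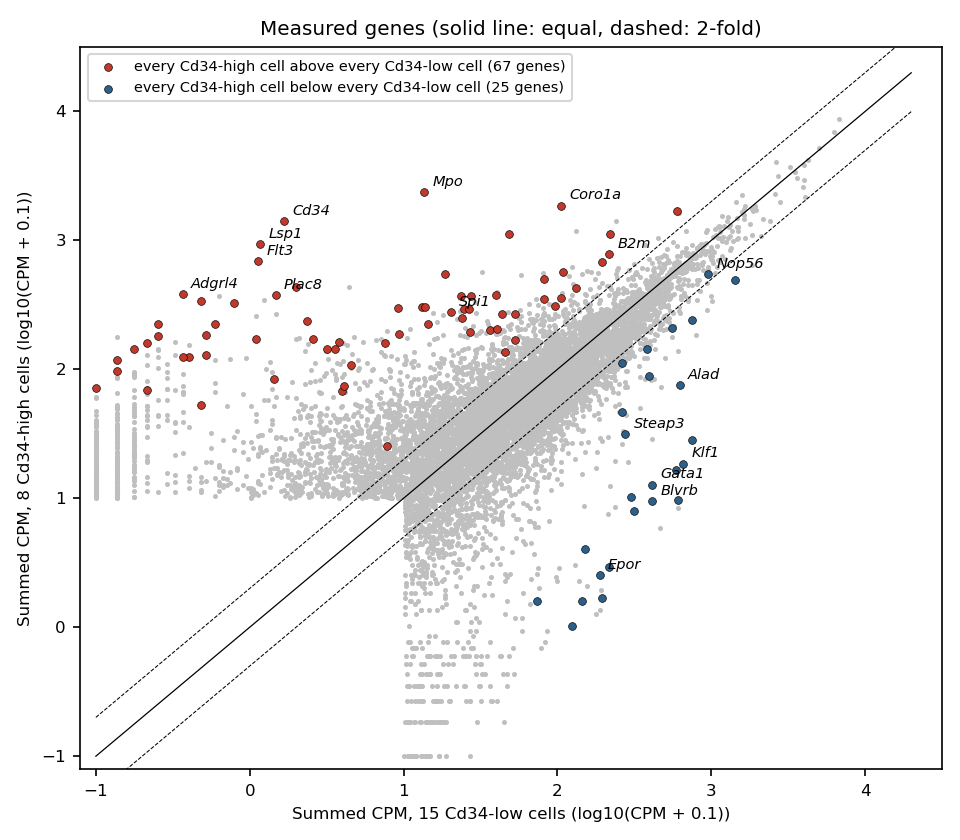
Summed CPM over the 8 Cd34-high cells (vertical axis) against the 15 Cd34-low cells (horizontal axis), both as log10 of CPM plus 0.1, for the 9224 measured genes in grey. Red points are the 67 genes higher in every Cd34-high cell and blue points the 25 genes lower in every one, and the dashed lines mark 2-fold.

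Among the 650 genes that met the naming rule as higher (50 CPM, a read in 75% of the cells, no cell with over 50% of the reads, among other conditions), the 12 with the highest ratios of summed reads were Myo1f, Cd93, Cd52, Csf2rb, Ifi203, Adgrl4, Mndal, Ptafr, Csf1r, Dusp5, Tyrobp and Napsa. All had 1 to 7 reads over the 15 Cd34-low cells, which leaves wide intervals on the ratios, as for Adgrl4 (1427-fold, interval 692 to 3551) and Tyrobp (1194-fold, 466 to 4388). Ifi203, an interferon-inducible gene, was the most even of them, at 177 CPM in the lowest Cd34-high cell, 211 at the median and 284 in the highest, against at most 0.683 CPM in Cd34-low cells. It overlaps Mndal in the annotation, so the split of reads between the pair is uncertain. Tyrobp, a signalling adaptor of myeloid and natural killer cells, stood at 64.1, 126 and 694 CPM as lowest, median and highest, against at most 0.683 CPM. Csf1r, the macrophage colony-stimulating factor receptor, was far from even, with 10 or more reads in 4 of 8 Cd34-high cells and 48.7% of its reads in well F1.

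Among the 601 genes that met the same rule as lower, the 12 with the lowest ratios were Serinc5, Optn, Prss50, Gdf3, Sh2d4a, Mylk3, Samd14, Atp1b2, Ces2g, Tspo2, Trib2 and Ermap. Gdf3, a growth factor of the transforming growth factor beta family, stood at 0, 0 and 5.56 CPM as lowest, median and highest of the Cd34-high cells, against 21, 97.3 and 247 CPM in Cd34-low cells. Samd14, which takes part in Kit signalling in erythroid precursors, stood at 0, 0.721 and 5.56 CPM, against 28.8, 189 and 396 CPM. Tspo2, a translocator protein of erythroid cells, stood at 0, 1.31 and 3.09 CPM, against 19.1, 110 and 293 CPM. The groups did not overlap for these 3 genes, and summed reads were 136-fold (75.9 to 273), 124-fold (79.1 to 205) and 95.9-fold lower (60.6 to 162). Serinc5 and Ces2g were uneven among the Cd34-low cells, with 10 or more reads in 7 of 15. Among genes singled out after their values were seen, the biliverdin reductase gene Blvrb was 44.3-fold lower (36.7 to 53.8), the urea transporter gene Slc14a1 76.1-fold lower (54.4 to 110) and the metallothionein gene Mt1 26.7-fold lower (24.0 to 29.9), all without overlap.

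Stem and multipotent progenitor genes were mostly higher in the Cd34-high cells. Of 16 measured surface genes besides Cd34, 13 were 2-fold or more higher, 1 was lower and 2 were within 2-fold (median 3.78, log2), and 4 did not overlap between the sides. With Cd34, which the rule fixed, the list median was 4.88, and it was 1.96 without wells E3 and H2, 3.50 without the deepest cell of each side, 2.68 with no filter on low genes and 8.55 by the median of per-cell CPM. Cd27, a receptor of the tumour necrosis factor family found on multipotent progenitors, stood at 93.3, 355 and 552 CPM as lowest, median and highest of the Cd34-high cells, against 0, 0 and 1.94 CPM in Cd34-low cells. Adgrl4, an adhesion receptor of endothelial and stem cells, stood at 41.4, 267 and 1289 CPM, against at most 1.32 CPM. Kit, the stem cell factor receptor stained in the sort, was alike, at 757 CPM summed over Cd34-high cells and 764 CPM over Cd34-low cells (ratio 0.992, interval 0.967 to 1.02). Slamf1 (CD150) went against its list, with 6 reads in all over the Cd34-high cells and 31.8 CPM over the Cd34-low cells.

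Of 15 measured regulators of stem and multipotent cells, 12 were higher and 2 lower (list median 2.26, log2). Mn1, a transcriptional coregulator, stood at 33.4, 127 and 582 CPM as lowest, median and highest in Cd34-high cells, against at most 1.76 CPM in Cd34-low cells, and Hoxa7, a homeobox gene, at 22.2, 46.7 and 136 CPM, against at most 3.29 CPM. Mycn was 18.8-fold higher (16.7 to 21.4), with 45.3% of its reads in well H2. Lmo2 and Gata2 were the lower members, and both also act in erythroid and megakaryocyte progenitors. Lmo2 was 3.15-fold lower (3.01 to 3.30) but at 587 CPM in well H2, within the Cd34-low range of 226 to 1036 CPM. Well F1, with 557 Lmo2 reads of 1618599, also lay within that range. Gata2 was 2.48-fold lower (2.33 to 2.65) and uneven on both sides, from 0.668 to 492 CPM in Cd34-high cells, against 0.620 to 1353 CPM in Cd34-low cells.

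Early myeloid genes such as Mpo and Plac8 were present in all 8 Cd34-high cells, while genes of mature neutrophils were nearly absent. Of 12 measured primary granule and early neutrophil genes 9 were higher, 0 lower and 3 within 2-fold (list median 3.75, log2). Plac8 stood at 72.9, 360 and 1014 CPM as lowest, median and highest of the Cd34-high cells, against 0, 0.569 and 16.4 CPM in Cd34-low cells. Prtn3, the granule protease proteinase 3, stood at 0, 192 and 437 CPM, against 0, 11.4 and 84 CPM, so its ranges overlapped, and it was 10.2-fold higher in summed reads (9.20 to 11.3). Elane, the elastase gene of the same granules, had 0 reads on both sides, and Ctsg had reads in well C2 alone (45.2 CPM). Of 12 late neutrophil genes 0 were measured, and Camp, Ngp, Lcn2, S100a8 and S100a9 had 0 reads on both sides, though Ltf was at 69.1 CPM in well B2. Of 7 eosinophil and 9 macrophage genes 0 were measured either.

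Of 10 measured myeloid transcription factors 9 were higher and 0 lower (list median 3.94, log2). Spi1, which encodes PU.1, stood at 133, 264 and 563 CPM as lowest, median and highest in Cd34-high cells, against 0, 1.94 and 124 CPM in Cd34-low cells, and the sides did not overlap. Cebpa, the main factor of granulocyte commitment, had reads in well B2 alone (37.5 CPM). Irf8, a factor of monocytes and dendritic cells, had 10 or more reads in 4 Cd34-high cells and 0 reads in the Cd34-low cells, and its summed level was at least 522-fold higher with the Cd34-low cells set at a floor of 3 reads. Of 6 measured monocyte and dendritic cell genes 5 were higher (list median 7.02, log2), and H2-Ab1 was lower, with reads in well B1 alone among the Cd34-high cells.

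Of 13 measured lymphoid priming genes 11 were higher and 0 lower (list median 9.28, log2). This median was 6.70 with cells thinned to 500000 reads and 8.16 by the median of per-cell CPM. Notch1, the receptor that starts the T cell program, stood at 34.6, 370 and 950 CPM as lowest, median and highest of the Cd34-high cells, against 0, 0.587 and 42.6 CPM in Cd34-low cells, with a slight overlap. Ighm, the immunoglobulin mu heavy chain gene, split the Cd34-high cells into a group of 5 (898 to 1332 CPM in wells B1, B2, C1, E2 and F1) and a group of 3 (0.576 to 4.21 CPM in C2, E3 and H2), against at most 5.58 CPM in Cd34-low cells. Transcripts of an unrearranged heavy chain locus also count towards this gene, so its level does not show an antibody. Il7r, the interleukin 7 receptor, was at 266, 31.6, 220 and 338 CPM in wells B1, B2, C1 and F1 and at 0 in the other 4 Cd34-high cells. Rag2, a recombinase of antigen receptor genes, was at 375, 262 and 85.9 CPM in B1, C1 and F1. Ccr9, a chemokine receptor of thymus-seeding cells, was at 185, 384 and 616 CPM in B1, B2 and C1. All cells with 10 or more reads of Il7r, Rag2 or Ccr9 were thus among the 5 with Ighm. Dntt, Cd3e, Elane and Pax5 had 0 reads in all 23 cells. Rag1, Ebf1 and Cd79a were below 10 CPM in the sum of either side but were not absent from single wells. Rag1 had 69 reads in B1, Ebf1 21 in B1 and 25 in C1, and Cd79a 41 in C1. Ikzf1 and Bcl11a, also in this list, lay within 2-fold.

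The transcripts of several lineages were held by the same cells. All 5 cells with Ighm also held Mpo, at 2467, 1204, 835, 145 and 6209 CPM in wells B1, B2, C1, E2 and F1. Well F1 combined the highest Mpo of the 8 with Flt3 at 1449 CPM, Il7r, Irf8 (216 CPM) and Csf1r (343 CPM). Well C2 had Mpo at 5296 CPM, Fcgr3 at 145 CPM and Ighm at 1.43 CPM. Wells E3 and H2 had the lowest Flt3 of the 8, at 85.3 and 41.4 CPM. H2 had the highest levels of several stem cell genes, with Hlf at 247 CPM, Hoxa5 at 89.7 CPM, Esam at 790 CPM, Tek at 187 CPM and Angpt1 at 410 CPM, and 86.7% of all Hlf reads of the side. E3 alone held Cpa3 (243 CPM), a mast cell protease gene, and Mecom (36.3 CPM), and it had the highest Gata2 (492 CPM), Itga2b (214 CPM), Tgfbr3 (305 CPM) and Tal1 (109 CPM) of the 8. These wells were picked with their values in view, each is 1 cell, and whether they repeat was not tested. With E3 and H2 left out, the median of the stem surface list was 1.96 and that of the regulators stayed above 0.

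**Figure D3:**
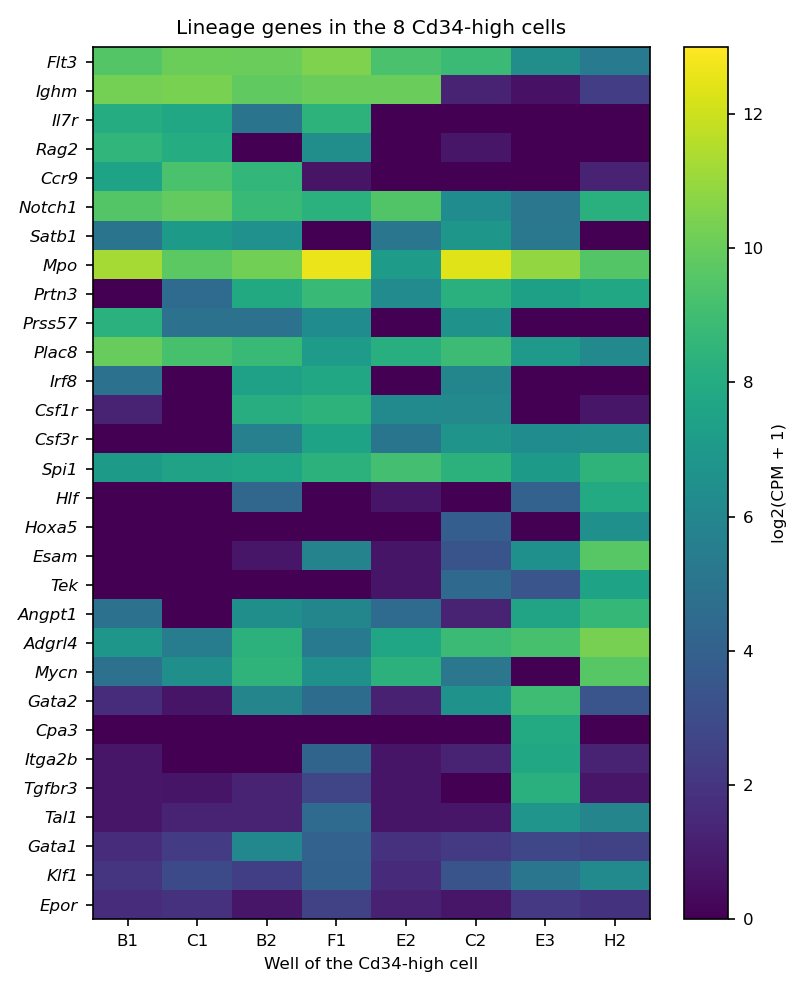
Levels (log2 of CPM plus 1, colour) of lymphoid, myeloid, stem, megakaryocyte and mast, and erythroid genes (rows) in the 8 Cd34-high cells (columns, by well). The 5 wells on the left hold Ighm at 898 CPM or more, E3 stands out by Gata2 and Cpa3, H2 by Hlf and Esam, and the rows of Gata1, Klf1 and Epor are dark in most wells, with Gata1 at 66.9 CPM in B2 and Klf1 at 71.5 CPM in H2.

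Genes of leukocyte signalling and the actin cytoskeleton were mostly higher in the Cd34-high cells. All 28 members were measured, 22 were higher and 0 lower (list median 2.08, log2), and 10 did not overlap. Coro1a, an actin regulator of white blood cells, stood at 1169, 1889 and 2461 CPM as lowest, median and highest in Cd34-high cells, against 0.669, 54.9 and 519 CPM in Cd34-low cells. Lcp1, the leukocyte plastin, stood at 849, 968 and 1765 CPM, against 0.264, 19.7 and 176 CPM. Lsp1, another actin-binding protein, stood at 229, 1046 and 1542 CPM, against at most 4.11 CPM, and was 881-fold higher in summed reads (609 to 1327). Rac2 and Arhgdib, a small GTPase of blood cells and its inhibitor, differed less, at 5.06-fold (4.91 to 5.22) and 2.84-fold higher (2.78 to 2.90), and still did not overlap. Ptprc, the CD45 gene, was 17.9-fold higher (16.1 to 19.9) but overlapped, at 93.3 to 492 CPM against 0 to 134 CPM. All 7 measured Gimap genes, GTPases of lymphocytes, were higher, at a median of 4.88, and Gimap6 did not overlap (303 to 862 CPM against 0 to 58.9 CPM). Of 7 antigen presentation genes 4 were higher and 1 lower, at 1.05, and B2m, the light chain of class I molecules, stood at 557 to 1259 CPM against 140 to 305 CPM.

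Cytokine receptor genes were mostly higher in the Cd34-high cells. Of 17 measured cytokine receptors 11 were higher, 1 was lower and 5 were within 2-fold (list median 2.04, log2). Csf3r, the granulocyte colony-stimulating factor receptor, stood at 0, 63.9 and 187 CPM as lowest, median and highest in Cd34-high cells, against at most 0.620 CPM in Cd34-low cells. Csf2rb, the shared chain of the interleukin 3, interleukin 5 and GM-CSF receptors, stood at 0, 75.4 and 244 CPM, against 1 read over all Cd34-low cells, though Csf2rb2 is a near-identical copy and the split of reads between them is uncertain.

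The erythroid program was lower in the Cd34-high cells in most of its heme and surface genes and in some of its transcription factors. Of 16 measured erythroid transcription factors 6 were lower, 2 higher and 8 within 2-fold (list median -0.31, log2), which turned to 0.01 with no filter on low genes. Besides Gata1 and Klf1, Tal1 (4.35-fold, 3.87 to 4.90) and Gfi1b (3.97-fold, 3.72 to 4.23) were lower in summed reads, but their cells overlapped. Tal1 had 1 to 190 reads a cell in Cd34-high cells, against 8 to 938 in Cd34-low cells. Gfi1b had 7 to 260, against 2 to 2268. Myb, needed by progenitors of many lineages, was at 133 CPM over Cd34-high cells and 120 CPM over Cd34-low cells, Nfe2 at 302 and 249 CPM, and Lyl1, a relative of Tal1, was 2.55-fold higher (2.43 to 2.67).

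Of 15 measured genes of heme synthesis and transport 12 were lower, 0 higher and 3 within 2-fold (list median -1.94, log2). Alad, the second enzyme of the pathway, stood at 7.71, 84 and 143 CPM as lowest, median and highest in Cd34-high cells, against 206, 662 and 944 CPM in Cd34-low cells, and was 8.23-fold lower (7.69 to 8.80). Urod stood at 5.07, 85.1 and 166 CPM, against 219, 406 and 681 CPM, also without overlap. Fech, which inserts iron into the ring, was 10.1-fold lower (8.99 to 11.3) but reached 151 CPM in well E2. Alas1, the form of the first enzyme found in all tissues, lay within 2-fold at 68.4 and 38.4 CPM, and Alas2, its erythroid form, was below 10 CPM on both sides. Of 20 measured red cell membrane and surface genes 16 were lower and 0 higher (list median -5.10, log2). Ermap, an erythroblast membrane protein, was 81-fold lower (63.9 to 104), Rhag 63.9-fold (43.5 to 98), and Aqp1, a water channel, stood at 0, 2.33 and 65.4 CPM, against 79, 344 and 657 CPM. Car1 was 72.8-fold lower, but 42.9% of its Cd34-low reads came from well C3. Gypc, Epb41 and Add1, which other blood cells use too, lay within 2-fold, as did Cd24a, a sort gene, at 190 and 96.9 CPM.

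**Figure D4:**
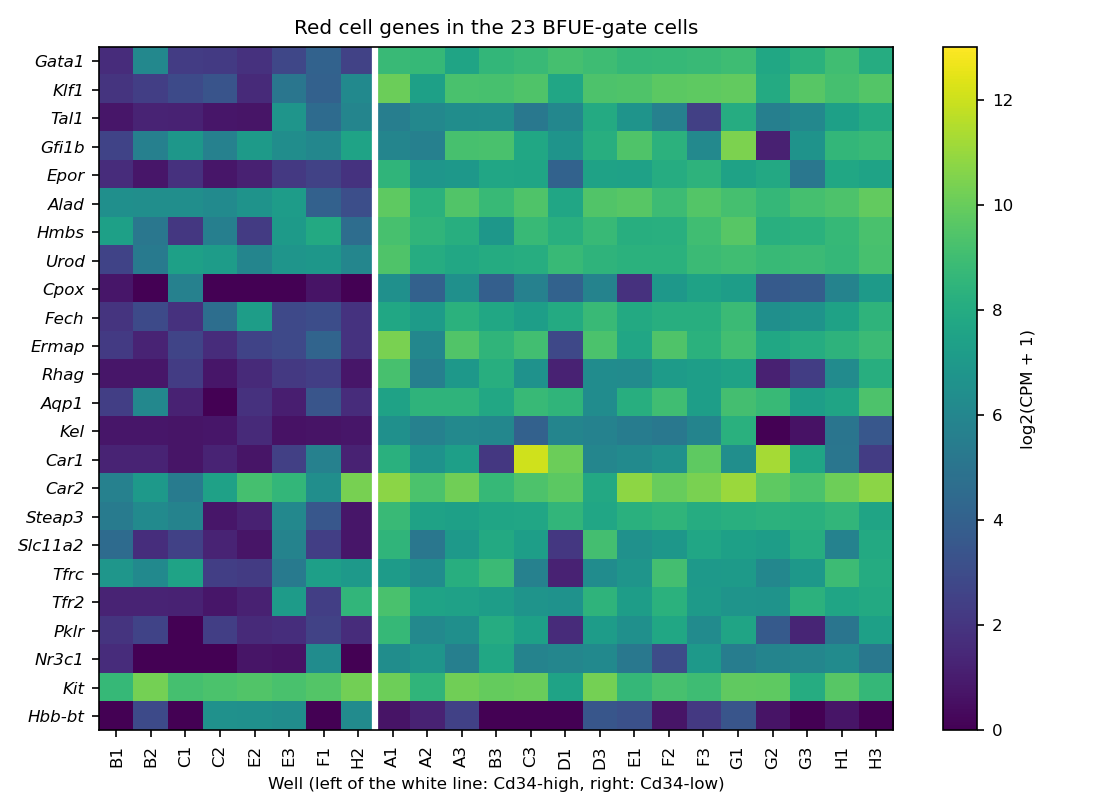
Levels (log2 of CPM plus 1, colour) of erythroid regulators, heme enzymes, surface genes, iron genes, Pklr, Nr3c1, Kit and Hbb-bt (rows) in the 8 Cd34-high cells (left of the white line) and the 15 Cd34-low cells (right), by well. Most rows are dark on the left and bright on the right, Kit is bright throughout, and Hbb-bt is brighter in 4 Cd34-high wells, at 75.7 to 94 CPM.

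Iron genes were divided. Of 12 measured, 6 were lower, 1 was higher and 5 were within 2-fold (list median -0.53, log2). Steap3, the endosomal iron reductase, stood at 0.701, 26.3 and 72.7 CPM as lowest, median and highest in Cd34-high cells, against 167, 297 and 453 CPM in Cd34-low cells, and Slc11a2, the transporter that follows it, was 17.9-fold lower (15.2 to 21.3). Tfrc, which encodes the sorted CD71, was 2.10-fold lower (1.97 to 2.25), at 3.84 to 188 CPM against 1.35 to 551 CPM. The ferritin gene Fth1 was alike, at 1156 and 1147 CPM, and Fbxl5, the sensor that degrades iron regulatory proteins, was 2.08-fold higher. Of 7 globin genes in the table only Hbb-bt was measured. It was at 94, 92.2, 81.2 and 75.7 CPM in Cd34-high wells C2, E2, E3 and H2 and at most 6.61 CPM in the other 4, against at most 10.3 CPM in Cd34-low cells. Its near-identical copy Hbb-bs was at 4.68 CPM over Cd34-high cells and 4.81 CPM over Cd34-low cells, so the split of reads between them is uncertain.

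Most listed genes of the erythropoietin pathway below its receptor were not lower, which does not measure how active the pathway was. Of 11 measured members, Epor among them, 7 were higher and 2 lower (list median 1.25, log2). The lower ones were Epor and Stat5a (2.35-fold, 2.19 to 2.53), and Stat5b was also lower but within 2-fold. The kinase gene Jak2 was uneven, with 161 reads in well C2 and at most 44 in any other Cd34-high cell. Those higher, all used by other receptors too, included the inhibitory phosphatase and adaptor genes Ptpn6 (2.39-fold, 2.31 to 2.47) and Sh2b3 (2.94-fold, 2.76 to 3.15) and the kinase genes Lyn (2.08-fold, 1.96 to 2.22) and Pim1 (9.97-fold, 7.6 to 13.2). Among genes tied to BFU-E self-renewal and glucocorticoid response 4 of 10 were higher and 3 lower, at 0.36, and this median was below 0 under 3 of the settings tried. Nr3c1, the glucocorticoid receptor gene, was at or under 2.17 CPM in 7 Cd34-high cells and 79.1 CPM in well F1, against 7.10, 61.1 and 212 CPM as lowest, median and highest in Cd34-low cells. Its target Tsc22d3 was 3.63-fold higher (3.25 to 4.06) in the summed reads of the Cd34-high cells. The cells overlapped, at 0 to 328 reads a cell, against 0 to 190 in Cd34-low cells.

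Megakaryocyte genes were mostly lower in the Cd34-high cells in summed reads, but the cells of the sides overlapped. Added up by cell, the 16 listed genes stood at 101, 293 and 911 CPM as lowest, median and highest in Cd34-high cells. In Cd34-low cells they stood at 80, 402 and 2735 CPM. Of 10 measured, 7 were lower and 3 higher (list median -2.27, log2), and the median was -4.99 in the upper plate rows (A to D) and -1.93 in the lower ones. Itga2b, which encodes the depleted antigen CD41, stood at 0, 1.06 and 214 CPM as lowest, median and highest in Cd34-high cells, against 0, 51.5 and 881 CPM in Cd34-low cells. F2r, a thrombin receptor, was 5.34-fold lower (4.89 to 5.83), and Vwf had 1 read over the Cd34-high cells and 10 or more in 3 of 15 Cd34-low cells. Cd9 (2.74-fold, 2.4 to 3.12) and Gp9 (2.12-fold, 1.81 to 2.48) were among the higher members. Of 12 mast cell and basophil genes 3 were measured, with Cpa3 in well E3 alone.

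**Figure D5:**
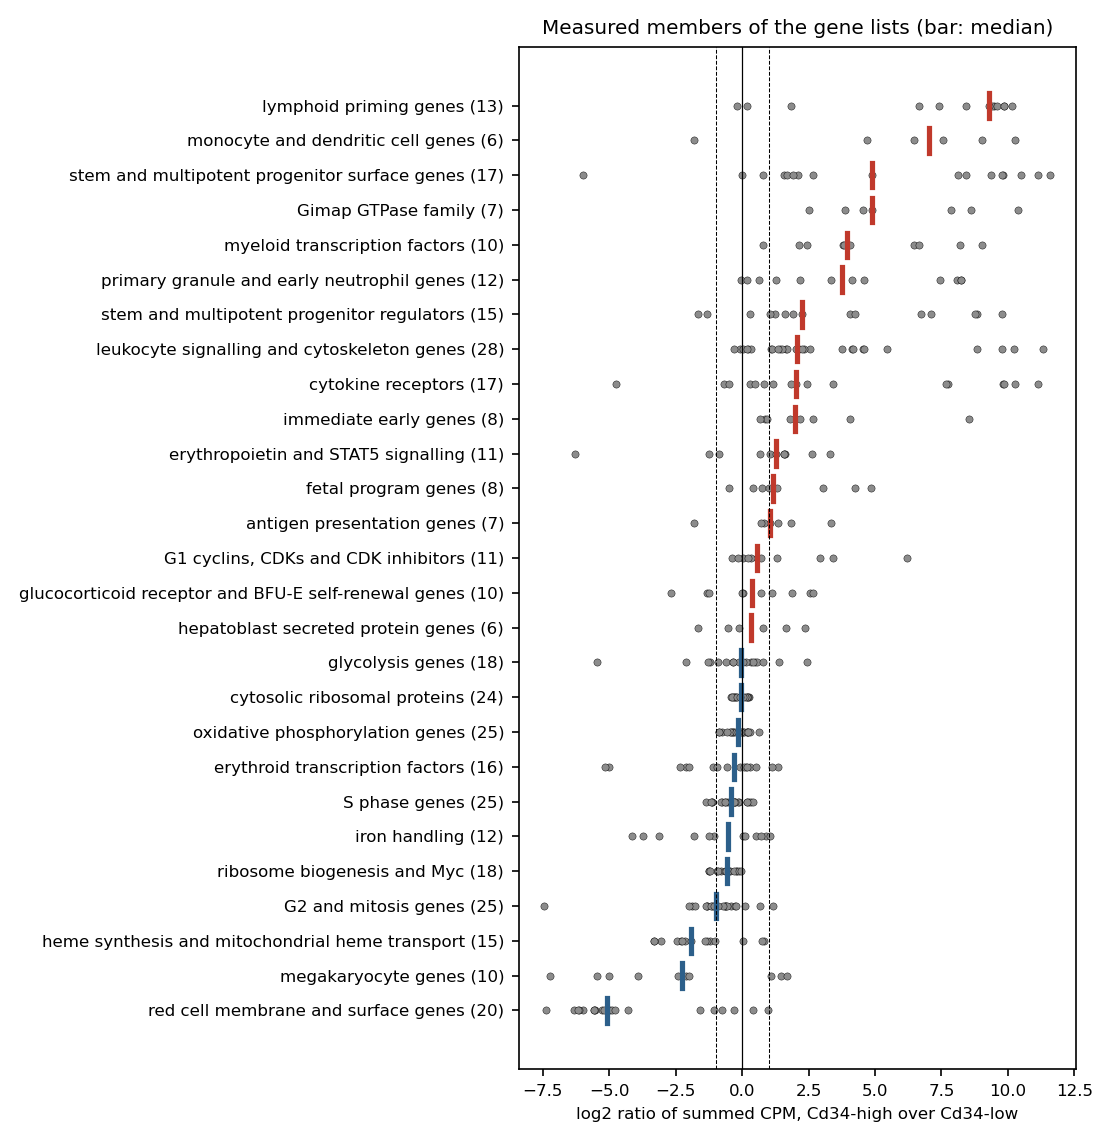
Log2 ratio of summed CPM, Cd34-high over Cd34-low, of each measured member (grey points) of the gene lists with 5 or more measured members, leaving out the depletion targets and the sex-linked genes. Bars are medians, from 9.28 for lymphoid priming genes to -5.10 for red cell membrane and surface genes, and the dashed lines mark 2-fold.

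Most growth genes lay within 2-fold. Of 25 S phase genes 21 lay within 2-fold and 4 were lower (list median -0.41, log2). Of 25 genes of G2 and mitosis 12 were lower and 1 higher, at -0.98. Their summed level was 117 CPM in the lowest Cd34-high cell (H2), 2214 at the median and 10169 in the highest (F1), against 2200, 4802 and 8776 CPM in Cd34-low cells, so the ranges overlapped. Plk1, a mitotic kinase, was at 811 CPM in F1 and at most 100.2 CPM in the other 7, against 41.6 to 725 CPM in Cd34-low cells. All 18 ribosome biogenesis genes had ratios below 1, 3 of them past 2-fold, at a median of -0.58, and Nop56, a nucleolar protein, stood at 340, 563 and 728 CPM as lowest, median and highest, against 775, 925 and 1196 CPM. Of 24 ribosomal protein genes and 25 oxidative phosphorylation genes 0 were past 2-fold, at -0.05 and -0.16. Among G1 regulators 4 of 11 were higher and 0 lower, with Ccnd1 10.8-fold higher (8.88 to 13.1) and Cdk4 and Cdk6 within 2-fold. The inhibitor gene Cdkn1c, at a log2 ratio of 6.20, rested on few reads. It had 41, 21, 11 and 61 reads in wells C1, C2, E2 and E3 and 0 in the other Cd34-high cells. In Cd34-low cells it had 4 reads, all in well C3. Of 8 fetal program genes 5 were higher and 0 lower, at 1.17, led by Igf2bp2 (29.1-fold, 23.7 to 36), while Lin28b was at 54.7 and 76.4 CPM.

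Glycolysis genes lay at a median log2 ratio of -0.05 with 2 of 18 higher and 4 lower, and isoforms went apart. Pkm, the pyruvate kinase of most tissues, stood at 774, 1649 and 2251 CPM as lowest, median and highest in Cd34-high cells, against 172, 635 and 1906 CPM in Cd34-low cells. Pklr, the form of red cells and liver, was 44.3-fold lower (31.8 to 63.7). Hk1, the hexokinase of red cells and many other cells, was 4.29-fold lower (4.11 to 4.49) and Hk2 was 5.37-fold higher.

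Markers of cells that the gate or the depletion should lack were also counted. Of 9 genes listed for the depletion antigens 5 were measured, 4 were higher and Itga2b was lower. The 4 higher genes include Ly6e, which encodes none of the antigens of the antibodies named above. Fcgr3 (CD16) had 10 or more reads in 3 Cd34-high cells, up to 145 CPM in C2, against 1 Cd34-low cell, and Ly6a (Sca-1) in 3, up to 50.1 CPM in E3, against 0. Ptprc is also the gene of CD45R, a splice form that gene counts cannot resolve. Cd3e and Ly6g had 0 reads in all 23 cells. Itgam (CD11b) had 34, 20 and 10 reads in Cd34-high wells C1, F1 and H2 and 0 in every other cell. Fcgr2b (CD32) had 23 reads in Cd34-high well B1, 61 in Cd34-low well A2 and at most 1 in any other cell. Hepatoblast genes were on both sides, with Alb at 53.6 CPM and Afp at 96.8 CPM over Cd34-high cells, against 78.6 and 106 CPM over Cd34-low cells, at a list median of 0.32 whose sign changed under 5 settings. Of 10 endothelial and stromal genes Pecam1 (8.80-fold, 7.79 to 9.97) and Pdgfrb were measured and higher in summed reads. Pecam1 was uneven and overlapped, at 0 to 548 reads a cell in Cd34-high cells, against 0 to 176 in Cd34-low cells. Pdgfrb, a growth factor receptor of stromal cells, was at 97.8 to 185 CPM in 5 Cd34-high cells and at most 0.735 CPM in the other 3, against at most 2.03 CPM in Cd34-low cells, while Kdr, Col1a1 and Dcn were below 10 CPM on both sides. Immediate early genes, which can respond to cell handling, had 5 of 8 members higher and 0 lower, at 1.98, and their summed level ran from 92 to 651 CPM in Cd34-high cells, against 26.1 to 225 CPM in Cd34-low cells. The part of handling in these results was not tested.

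Pairs of Cd34-high cells were less correlated than pairs of Cd34-low cells. At 500000 reads a cell, the correlation of log2(CPM + 10) over the 9224 genes between 2 cells had a median of 0.57 over the 28 pairs of Cd34-high cells (0.47 to 0.64), against 0.73 over the 105 pairs of Cd34-low cells (0.65 to 0.78) and 0.57 over the 120 pairs across the sides. These are correlations across genes, and pairs share cells and the plate, so they are a description only.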

How the data were processed

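Read counts of 96 wells of 1 plate were analysed, of which 24 were BFUE wells. The deposited values are whole-number counts of reads per gene without normalisation. The tools the authors name are STAR 2.4 (alignment) and featureCounts (counting), with GRCm38 as the build, per the submitters' processing notes. No annotation release, strand setting or rule for shared reads is stated (not given in the sources used here), so overlapping and near-identical genes are uncertain. The header holds 1 blank cell more than the data lines, and its 96 names were taken for the 96 values in order. Read by cell position instead, the last name would have no values, every well name would move by 1 and 1 BFUE well would be exchanged for one of another gate, so well names rest on this reading. Of 49466 gene identifiers, 99.7% are in GENCODE M21, whose coordinates are given, and 0 columns had no sample. For 76 symbols with several identifiers the one with most reads was used.

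Wells with 50000 or more reads were kept and CPM used the well total. Doublets were not called. Counts were summed over the cells of a side, with exact Poisson and conditional binomial 95% intervals that cover counting error only. In ratios, 0 reads over a side were replaced by a floor of 3, while 1 or 2 reads were used as they were. A ratio resting on 1 or 2 reads can therefore exceed one resting on 0, which affects the order of the largest ratios. A gene was measured at 10 CPM in either side, and called higher or lower at 2-fold. Named genes had 50 CPM in the higher side, a read in 75% of its cells, no cell with over 50% of its reads, 2-fold by both the sums and the averages over cells, and the same direction in the upper and the lower plate rows, with the 12 largest and 12 smallest ratios taken and predicted genes, Rik clones and pseudogenes left out. Up to 8 members of each of 35 lists, and every member against its list's median, could be named besides. The members and lists were chosen with earlier results of these data known. One list member is not reported here. Medians are given for lists with 5 or more measured members. The code for ratios and their intervals was tested on simulated sums that held counting error only and no spread between cells. Alternative scalings came from R 4.3.3, as DESeq2 1.42.0 size factors and edgeR 4.0.16 TMM factors. All else ran in Python 3.11.15 with scipy 1.17.1, pandas 2.3.3 and numpy 2.4.6, and matplotlib 3.10.9 drew the plots.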

Additional observations from a re-analysis of the deposited data

Results flagged for a closer look

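Over 41 measures of the 8 Cd34-high cells (depth, genes, mitochondrial share, 6 markers and list sums), 8 had a single cell set apart from its nearest neighbour by more of the range than Dixon's 95% criterion allows. Chance alone flags about 1 group in 20 only where values are independent and normally distributed. Some lists here share members, and the late neutrophil sums were at most 0.717 CPM in the Cd34-high cells other than B2. That rate therefore need not hold here, the number of flags was not tested against chance, and the cells are not replicates. Well H2 stood highest in Klf1 (71.5 CPM) and in the summed level of the stem regulators (2627 CPM). It was also highest in the erythroid transcription factors (2728 CPM) and the red cell membrane and surface genes (2290 CPM). The members of these lists with most reads in H2 were Nfe2 (1002) and Lyl1 (810), and Car2 (1826) and Gypc (584). Gata1, Epor and Rhag had only 7, 4 and 1 reads there. Well B2 stood highest in Gata1 (66.9 CPM) and in the late neutrophil genes (69.1 CPM, all of it Ltf). Well E3 stood highest in the mast cell and basophil genes (315 CPM) and F1 in the genes of G2 and mitosis (10169 CPM).

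The BFUE well left out for depth, D2, held Cd34 at 641 CPM (8 reads) and Mpo at 481 CPM (6 reads) among 12472 reads, above the 241 CPM that 3 reads give there. Gata1 and Epor had 0 reads in it, which allows up to 241 CPM of each.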

How the results depend on the processing

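Signs of named genes and list medians held under the settings tried, apart from the list medians near 0 given below. Values were taken as close where a count was within 1.5 times, a list median within a 1.5-fold difference and a named gene within its counting interval, which is wide for genes with few Cd34-low reads and narrow for others. Of the counts and main lists 124 values stayed close and 30 moved, and of named genes and other lists 707 stayed and 71 moved. With the median of per-cell CPM in place of sums, the balance turned round, with 1367 genes 2-fold or more higher and 1842 lower, and list medians were 8.55 (stem surface), 6.81 (primary granule), 8.16 (lymphoid), -3.06 (heme) and 2.71 (leukocyte). Plate rows A to D alone gave 245 genes above and 200 below in every Cd34-high cell, with 3.96 (stem surface), 8.25 (lymphoid) and -1.24 (heme), and rows E to H gave 201 and 179, with 5.89 and 7.30 for the first pair of lists. Fewer cells a side make such separation easier by construction. By the median of per-cell CPM the stem surface list had the highest median, and in rows A to D the megakaryocyte list (-4.99) lay below the red cell membrane list (-4.67). Thinning gave a lymphoid median of 6.70. A level of 50 CPM gave 809 genes higher and 662 lower, and no filter gave 3919 and 3198, with 2.68 (stem surface) and 7.93 (lymphoid). Without the deepest cell of each side 39 genes were below in every Cd34-high cell and the stem surface median was 3.50. Without wells E3 and H2, chosen after seeing the data, 107 were above and 53 below, with a stem surface median of 1.96. At 1.5-fold 2343 genes were lower, and at 4-fold 1157 were higher and 511 lower. Apart from the changes in construction named, the cause was not tested. Cd34 thresholds of 10 or 500 CPM gave the same cells. Medians changed sign for ribosomal proteins (to 0.01 without E3 and H2), glycolysis (to 0.04 at 50 CPM), erythroid transcription factors, glucocorticoid and hepatoblast genes. Reads without molecular identifiers, 1 plate and 8 Cd34-high cells limit all values. No paired analysis was possible because each side is 1 sample and the result comes from no test.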
